A study of Mus musculus with 5 samples.

Results

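The genes described here are the interferon-stimulated genes of the type I interferon response, a list of 38 mouse genes chosen by name and not by any measured value. Of the 38, 36 had a row among the 32245 gene symbols of the deposited count matrices; Mx1 and Mx2 were not analysed here. They were followed through single cells of CT26 tumours, a colon carcinoma line of BALB/c origin, grown under the skin of BALB/c mice that were 6 weeks old. One library came from tumours of mice given the anti-CTLA-4 antibody 9H10, 100 µg into the peritoneal cavity on days 5, 8 and 11 after inoculation, and the other from control mice given phosphate-buffered saline (PBS) on the same days. Tumours were collected on day 13, dissociated and run on the 10x Genomics 5′ immune profiling kit with a target of 5000 cells. With 1 library per condition there was no replicate check and no test between conditions.

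Type I interferons bind the receptor Ifnar1/Ifnar2, which activates Stat2. Stat2 and Irf9 are parts of the complex ISGF3, which binds the interferon-stimulated response element (ISRE) in the promoters of its target genes. The targets include RNA sensors, enzymes that act on viral RNA or nucleotides, the ubiquitin-like modifier Isg15 with its protease Usp18, and Irf7, which feeds back on interferon production. Interferon gamma signals through another receptor and acts at another promoter element, the gamma-activated site (GAS), and part of the members, above all the GTPases Igtp and Ifi47, are known as targets of interferon gamma.

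Transcripts were counted as unique molecular identifiers (UMIs). There were 19989467 UMIs over 4186 barcodes in the anti-CTLA-4 library, a median of 3147.5, against 86478313 over 5649 barcodes in the control library, a median of 6827. After filters, 3950 anti-CTLA-4 and 5242 control cells remained; 19 of their barcodes occurred in both libraries. Cell classes were named from fixed marker genes, without using the members or other interferon genes for clustering. The libraries differed in make-up. The anti-CTLA-4 library held 2126 T-like cells against 374 in the control library, 620 B-like cells against 72, and 37 cells of a group lacking the pan-leukocyte gene Ptprc against 2924. The 9 markers fixed for tumour cells did not name that last group. Krt8, Krt18, Krt7, Krt19 and Epcam each had a UMI in under 1% of its control cells. The other 4 markers, taken from earlier results of these data, were common there: Crabp1 had a UMI in 98.3%, Krt20 in 74.1%, Csrp2 in 72.3% and Areg in 68.1%. The mean log2 fold of the 9 markers was at most 0.86 in its clusters, under the limit of 1 for a name. The group is therefore called the Ptprc-negative group.

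The promoters of the members held the letters of the ISRE more often than the promoters of all genes. RefSeq promoter sequences (GRCm38.p6, 250 bases before to 50 after the start) were found for 28 of the 38 listed genes. The core ISRE letters, GAAA and GAAA with any 2 bases (NN) between them, were searched on both strands, where the other strand reads TTTC, NN and TTTC. They occurred in the promoter of 12 of these 28 genes (42.9%), against 3.46% of 27025 genes. The GAS letters TTCNNNGAA, which read the same way on both strands, occurred in 5 of the 28 (17.9%), against 8.13% of all genes. The windows below show 6 members whose values recur in the results, 5′ to 3′ on the strand of the gene, with every ISRE match in capitals. Isg15 lies on the minus strand at chr4:156200845-156200926 and holds 3 overlapping matches. Ifit1 (chr19:34640755-34640843, plus strand) and Ifit3 (chr19:34583343-34583446, plus strand) hold 2 each. Rsad2 (chr12:26456533-26456602, minus strand) holds 1. Bst2 (chr8:71537557-71537632, minus strand) holds 2 overlapping matches, and Igtp (chr11:58199492-58199555, plus strand) holds 1; these last promoters also hold 1 GAS match each, which in Bst2 overlaps the first ISRE match.
Isg15: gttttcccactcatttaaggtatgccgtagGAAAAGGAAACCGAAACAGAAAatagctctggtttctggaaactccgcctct
Ifit1: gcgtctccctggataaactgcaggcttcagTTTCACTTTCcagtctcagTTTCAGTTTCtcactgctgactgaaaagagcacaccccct
Ifit3: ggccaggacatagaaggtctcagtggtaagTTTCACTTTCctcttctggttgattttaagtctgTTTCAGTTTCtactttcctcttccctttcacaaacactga
Rsad2: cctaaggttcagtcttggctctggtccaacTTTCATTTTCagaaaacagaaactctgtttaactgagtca
Bst2: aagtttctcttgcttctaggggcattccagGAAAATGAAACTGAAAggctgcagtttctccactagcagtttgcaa
Igtp: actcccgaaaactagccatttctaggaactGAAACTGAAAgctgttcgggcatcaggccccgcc
A match of letters describes the promoter and is not evidence of binding in these cells. The promoters of Irf7 and Lgals3bp held no ISRE match in this window.

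The members were most abundant in neutrophil-like cells of both libraries. Levels are given as the members' share of all UMIs of a class, in UMIs per 10000, with exact Poisson 95% intervals that cover counting error only. In neutrophil-like cells the 36 members summed to 164.1 per 10000 (160.1 to 168.2) in 219 anti-CTLA-4 cells, against 167.5 (159.0 to 176.4) in 83 control cells. Plasmacytoid dendritic-like cells followed with 98.6 per 10000 in 15 anti-CTLA-4 cells, against 111.9 in 31 control cells. T-like cells held 33.3 (32.9 to 33.7) in anti-CTLA-4 tumours, against 34.0 (32.8 to 35.2) in control tumours. Keratinocyte-like cells were at the low end, with 3.52 (3.12 to 3.97) against 6.96 (6.48 to 7.46). Among classes with at least 50 cells of a library, neutrophil-like cells had the highest sum and keratinocyte-like cells the lowest, although the control interval of keratinocyte-like cells overlapped that of control B-like cells (6.69 to 9.65). UMIs were counted at the 5′ end of transcripts, so levels of different genes were compared without a correction for length.

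**Figure D1:**
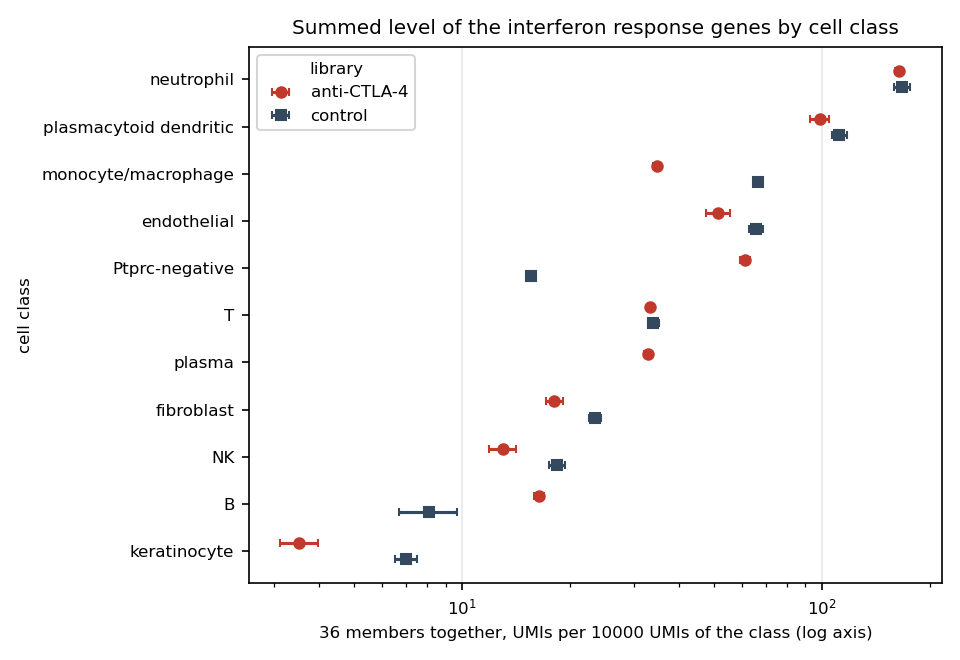
Summed level of the 36 measured interferon response genes in each cell class (UMIs per 10000 UMIs of the class, horizontal log axis). Anti-CTLA-4 is drawn above control in each class, with exact Poisson 95% intervals that cover counting error. Neutrophil-like cells lead in both libraries, the intervals of T-like and neutrophil-like cells overlap between libraries, and monocyte/macrophage-like cells are lower in anti-CTLA-4 (34.7) than in control (66.3).

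The mixture of members behind each sum differed between classes. Members were ranked over classes with at least 50 cells of the library. Neutrophil-like cells of anti-CTLA-4 tumours had the highest level of 30 of the 36 members. For 27 of these their interval lay apart from that of the next class, and in control tumours the numbers were 23 and 15. The share of all genes that were highest in neutrophil-like cells was not computed, so these counts have no background. Isg15 led in neutrophil-like cells, with 5255 CPM (UMIs of the gene scaled to 1000000 UMIs of the class) in anti-CTLA-4 and 7351 in control, followed by Rsad2 (viperin, which makes an antiviral nucleotide) with 2203 and 1740. In T-like cells, Ifi27l2a, a small membrane protein of the Ifi27 family, made up 52.1% of all member UMIs in anti-CTLA-4 and 53.2% in control. Bst2 (tetherin, which holds budding virus at the cell surface) made up 58.3% in anti-CTLA-4 plasmacytoid dendritic-like cells and 62.2% in control ones, or 5750 and 6963 CPM. Among classes with at least 50 cells of a library, Ifi27l2a was highest in T-like cells of both libraries, and Ifi44 and the RNA sensor Dhx58 were highest in monocyte/macrophage-like cells of both. The few plasmacytoid dendritic-like cells, which fall outside that limit, had 2501 CPM of Ifi27l2a in anti-CTLA-4 and 1813 in control, and T-like cells 1736 and 1809.

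A member was counted as higher or lower when its share of the class's UMIs differed at least 1.5-fold between the libraries and the exact binomial 95% interval of the ratio did not hold 1. Only members with at least 20 UMIs over both libraries were assessed, and the same rule applied to all genes gives the background. These intervals treat the UMIs of 1 library as independent, so they do not cover variation between mice.

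**Figure D2:**
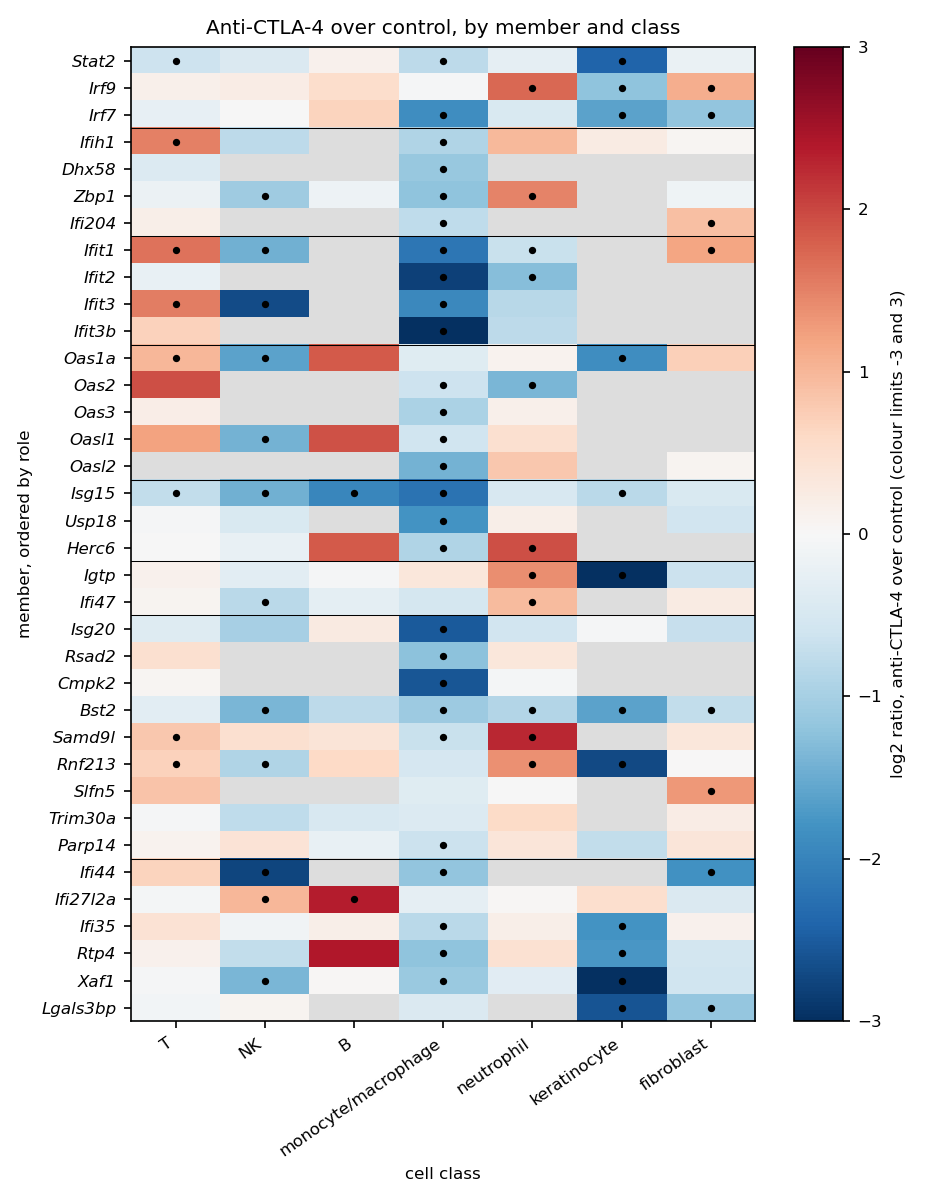
Log2 ratio of each member's share of UMIs, anti-CTLA-4 over control, in 7 cell classes (columns) with the members ordered by role (rows, separated by lines). Dots mark differences of at least 1.5-fold whose interval does not hold 1, and grey marks members under 20 UMIs; the monocyte/macrophage-like column holds 27 dots on the lower side and none on the higher side.

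In monocyte/macrophage-like cells the members were lower in anti-CTLA-4 tumours across nearly all roles. The sum was 34.7 per 10000 (34.0 to 35.4) in 490 anti-CTLA-4 cells, against 66.3 (65.6 to 67.1) in 1147 control cells. All 36 members passed the count minimum; 27 were lower, where 12.5% of 10081 genes were, and 0 were higher, where 14.5% were. Their median log2 ratio was -0.93, against 0.02 for all genes. At a fold of 2 in place of 1.5, 17 members were lower, and the share of all genes at that fold was not computed.

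The Isg15 pathway and the Ifit genes showed some of the widest gaps in monocyte/macrophage-like cells. Isg15 stood at 240.7 CPM in anti-CTLA-4 cells, against 1124 in control cells, a ratio of 0.214 (0.198 to 0.232). Usp18, the protease that removes Isg15 and dampens the receptor, stood at 14.96 against 52.1. All 4 members of the Ifit family, whose proteins bind foreign RNA, were lower, with a median log2 ratio of -2.49. Ifit2 had 26 UMIs in anti-CTLA-4 cells and 293 in control cells, a ratio of 0.140 (0.090 to 0.210). Ifit1 had 8.65 CPM against 39.7, and Ifit3 had 13.3 against 51.2. Ifit3 and Ifit3b are near-identical copies, so their separate counts are uncertain.

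Among the transcription factors, Irf7 was lower in anti-CTLA-4 monocyte/macrophage-like cells, with 202.8 CPM against 735.5, a ratio of 0.276 (0.253 to 0.301). Stat2 was lower by less, with 28.3 against 48.5. Irf9, the DNA-binding part of ISGF3, was not called, with 43.9 against 44.9 (ratio 0.977, 0.780 to 1.22). The 3 factors thus ranged from near equality to a ratio of 0.276 in the same cells.

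The cytosolic sensors and the antiviral effectors were also mostly lower in anti-CTLA-4 monocyte/macrophage-like cells. Ifih1 (the long-RNA sensor MDA5) had 19.0 CPM against 35.5, and Dhx58 (its relative LGP2) had 17.96 against 39.7. Zbp1, a sensor of Z-form nucleic acid that can start necroptosis, had 98.1 against 224.9. Of the 5 genes of the oligoadenylate synthetase family, whose active members make the messenger that switches on RNase L, 4 were lower; Oasl2 had the widest gap, with 28.9 against 77.3. Oas1a was not called, at 88.5 against 113.0. Rsad2 had 59.5 against 140.5, and Cmpk2, a nucleotide kinase encoded next to it, had 4.32 against 26.7. Bst2 had 332.9 against 709.9, a ratio of 0.469 (0.437 to 0.503).

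In all, 9 members were not called in monocyte/macrophage-like cells. Ifi27l2a, the most abundant member there, had 1355 CPM in anti-CTLA-4 cells, against 1639 in control cells (ratio 0.827, 0.796 to 0.859). Igtp, an interferon gamma-regulated GTPase, was on the higher side, with 74.8 against 59.2 (ratio 1.26, 1.06 to 1.51). Ifi47, its relative, had 62.5 against 90.9. The others that were not called were Irf9, Oas1a, Trim30a, Rnf213, Slfn5 and Lgals3bp, with ratios of 0.700 to 0.977.

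The gap in monocyte/macrophage-like cells was present in each of their 3 clusters and differed in size between them. Cluster 8, led by Il1b, had 41.4 member UMIs per 10000 in 155 anti-CTLA-4 cells, against 96.3 in 269 control cells. There 32 of 35 members were lower, where 7.76% of genes were, and 0 were higher, where 9.83% were. Their median log2 ratio was -1.27. Cluster 2, led by Arg1 and Acp5, had 25.3 against 46.9, with 20 of 35 members lower (8.18% of genes) and 1 higher (10% of genes), Igtp. Cluster 4, which carries the complement genes C1q, had 43.4 in 61 anti-CTLA-4 cells, against 57.3 in 442 control cells. In cluster 4, 10 of 36 members were lower (13% of genes) and 0 were higher (13.5% of genes), with a median of -0.20.

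Isg15 and Irf7 were lower in all 3 clusters. Isg15 had 292 CPM in anti-CTLA-4 cells of cluster 8, against 2058 in control cells, 209 against 725 in cluster 2, and 161 against 770 in cluster 4. Irf7 had 291 against 1090 in cluster 8, 122 against 498 in cluster 2, and 161 against 632 in cluster 4. Ifit2 did not follow this order, with 7.42 against 102 in cluster 8, 1.54 against 52.4 in cluster 2 and 38.9 against 43.2 in cluster 4. Of the 27 members called lower in the class, Rsad2 turned in cluster 2 (log2 ratio 0.29) and 7 turned in cluster 4, among them Oas2 (0.96) and Stat2 (0.70). Members not called in the class also turned, with Ifi27l2a on the higher side in cluster 4 and Lgals3bp in cluster 2. Without Ifi27l2a, cluster 4 had 25.9 member UMIs per 10000 in anti-CTLA-4 cells, against 42.7 in control cells. The mix of clusters differed as well, since cluster 4 made up 61 of the 490 anti-CTLA-4 cells and 442 of the 1147 control cells.

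**Figure D3:**
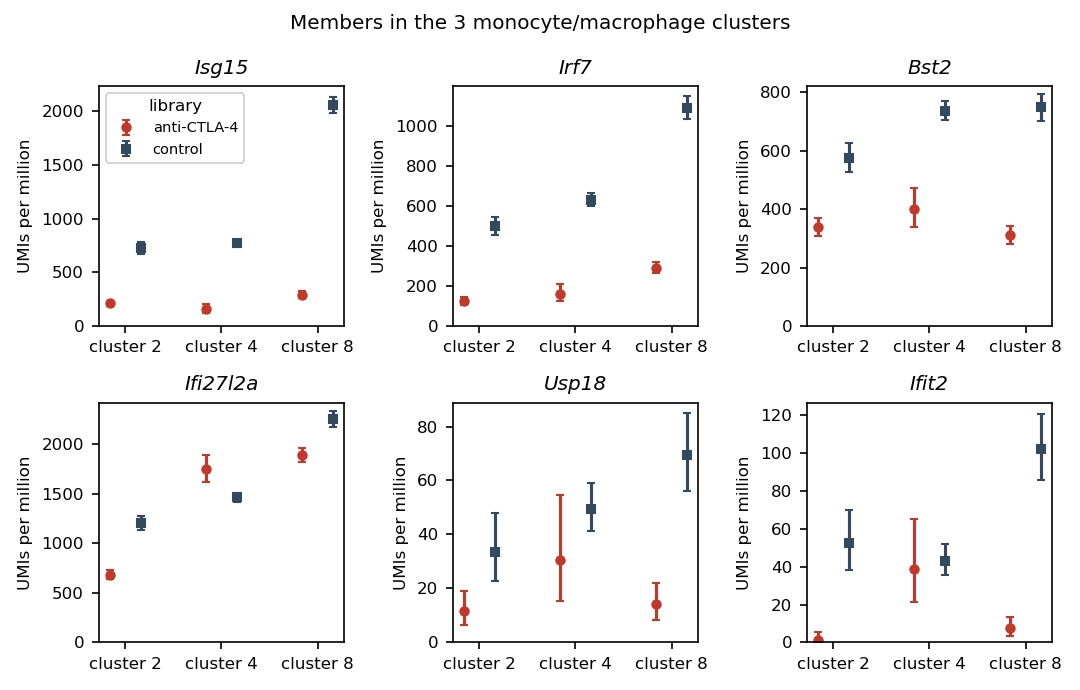
Level of single members (CPM, linear axis) in the 3 clusters of monocyte/macrophage-like cells, anti-CTLA-4 left of control, with exact Poisson 95% intervals. Isg15 and Irf7 are lower in anti-CTLA-4 in each cluster, while the levels of other members cross or approach each other in cluster 4.

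Several measurements moved with the gap in monocyte/macrophage-like cells. The summed level of all 12 fixed monocyte/macrophage markers was 123.0 per 10000 in anti-CTLA-4 cells, against 168.2 in control cells. The 5 osteoclast markers summed to 13.6 against 2.64. Median depth was 4617.5 UMIs per cell against 3361. The 8 cell cycle genes fixed for comparison were all lower. Genes that lead the Ptprc-negative group were taken as a gauge of free RNA. They were kept only if under 20 CPM in each named anti-CTLA-4 class, with no such limit in control classes. The low anti-CTLA-4 values of the gauge, here and below, therefore follow in part from that choice. These genes stood at 1.73% of their level in that group in anti-CTLA-4 cells, against 6.80% in control cells. Subtracting that share of the Ptprc-negative profile left the counts of members within 1.5 times of those given. The part of the markers and the cell cycle in the difference was not tested.

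The fixed lists around the members give the context of the monocyte/macrophage-like result. Of 49 other type I response genes past the count minimum, 28 were lower and 3 higher. Ifitm1 and Ifitm3, which block viral entry at membranes, had 249 CPM against 1495 and 1626 against 3720.5. Of 24 interferon gamma response genes, 13 were lower and 4 higher. Nos2, the inducible nitric oxide synthase, was among the higher ones, with 100.1 CPM against 9.66. Ifnar2, a chain of the type I receptor, had 183.6 against 308.7, while Socs1, an inhibitor of cytokine signalling, had 164.9 against 68.5.

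Neutrophil-like cells differed less in their sum, and single members went both ways. Of 32 members past the count minimum, 7 were higher in anti-CTLA-4 cells, where 15% of 2107 genes were, and 4 were lower, where 17% were. In log2 terms the members' median ratio was 0.15, against 0.06 for all genes. The share of members called was thus near the background in both directions. Isg15 was below the fold threshold, with 5255 CPM against 7351 (ratio 0.715, 0.654 to 0.783). Among the 4 lower members were Ifit1, with 219.5 against 345.7, and Ifit2, with 72.3 against 172.8. Oas2 was lower too, with 98.1 against 253.5.

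The 7 higher members in neutrophil-like cells included both interferon gamma-regulated GTPases. Igtp had 464.8 CPM in anti-CTLA-4 cells, against 172.8 in control cells, a ratio of 2.69 (1.59 to 4.91). Ifi47 had 1079 against 553.1. Zbp1 had 402.8 against 138.3. Irf9 had 131.7 against 34.6, the last from 3 UMIs. The large proteins Samd9l, Herc6 and Rnf213 (a restriction factor and a pair of ubiquitin ligases) were higher as well, Samd9l with 96 UMIs against 4, Herc6 with 59 against 3 and Rnf213 with 110 against 9.

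In the same neutrophil-like cells, 12 of 17 interferon gamma response genes past the count minimum were higher and 1 was lower. Gbp2, a guanylate-binding protein, had 1239 CPM in anti-CTLA-4 cells, against 484 in control cells. Of 22 other type I response genes past the count minimum, 5 were higher and 2 lower. Cd274, which encodes PD-L1 and stood in that list, had 2257 CPM against 657. Of 8 dissociation stress genes, 5 were lower and 1 higher, with Fos at 596 CPM against 1797 and Atf3 at 948 against 2051; their part was not tested. The control neutrophil-like cells were shallow, with a median of 933 UMIs against 1658 in anti-CTLA-4. The gauge of free RNA, whose genes were chosen to be low in anti-CTLA-4 classes, stood at 0.507% in anti-CTLA-4 cells, against 18.5% in control cells. With that share subtracted, 7 members were lower and the ratio of the sums moved to 0.827, against 0.980 without the subtraction.

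T-like cells had near-equal sums, and few members were called. Of 35 members past the count minimum, 6 were higher in anti-CTLA-4 cells, where 5.86% of 10171 genes were, and 2 were lower, where 9.02% were. The median log2 ratio was 0.12, against -0.07 for all genes. Ifi27l2a had 1736 CPM against 1809 (ratio 0.960, 0.912 to 1.010). Isg15 was lower, with 119.6 against 198.7 (ratio 0.602, 0.513 to 0.709), and so was Stat2, with 28.0 against 42.8. Higher were Ifit1 with 305 UMIs against 10, Ifit3 with 122 against 4, Ifih1 with 147 against 5, Oas1a with 159 against 8, and Rnf213 and Samd9l. When the interferon genes were allowed to shape the clusters, 2 members were higher and 4 lower, and the log2 ratios of Ifit1 (-0.13) and Ifit3 (-0.50) turned.

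The T-like sums joined clusters of unlike levels in unlike shares. In the 3 T-like clusters with at least 50 cells of each library, the sums were higher in anti-CTLA-4 cells, but cluster 10, the one with the highest level, made up 220 of the 2126 anti-CTLA-4 cells and 166 of the 374 control cells. Cluster 0, led by the naive or memory genes Lef1, Satb1 and Tcf7, had 42.4 member UMIs per 10000 in 827 anti-CTLA-4 cells, against 17.2 in 103 control cells. There 8 of 29 members were higher, where 5.29% of genes were, and 0 were lower, where 5.43% were. The median log2 ratio of these 29 was 1.07, or 0.69 with the 4 members at 0 control UMIs put at a floor of 3 UMIs. Ifi27l2a had the widest gap in level, with 2228 CPM against 581 (ratio 3.83, 3.16 to 4.70). Zbp1 had 170.2 against 89.4, Parp14 (a mono-ADP-ribosyltransferase) had 101.8 against 39.1, and Rnf213 had 102.7 against 16.8, the last from 3 UMIs. Cluster 10, which carries Foxp3 and Ctla4, had 58.5 in 220 anti-CTLA-4 cells, against 51.4 in 166 control cells. There 2 of 24 members were higher (6.51% of genes) and 4 lower (7.56% of genes). Cluster 5, with Cd8b1 and Ccr7, had 27.2 against 20.4, with 1 of 24 members higher (1.83% of genes) and 1 lower (6.33% of genes). The direction of 2 of these 3 sums rested on Ifi27l2a. Without it, cluster 0 had 20.1 per 10000 in anti-CTLA-4 cells, against 11.4 in control cells, cluster 5 had 14.997 against 15.6, and cluster 10 had 17.6 against 22.0. The other T-like clusters had few control cells: cluster 11 had 23.3 in 355 anti-CTLA-4 cells, against 48.4 in 25 control cells, and cluster 14 had 22.1 in 294, against 17.03 in 27.

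T-like cells were also split by the UMIs they carried for Foxp3, Cd4 and Cd8, a gate that leaves undetected cells in the last subset. Cells with a Foxp3 UMI, the mark of regulatory T cells, had 54.1 member UMIs per 10000 in anti-CTLA-4 tumours, against 62.8 in control tumours. Of 21 members past the count minimum there, 4 were lower (7.64% of genes) and 1 higher (4.51% of genes). Isg15 had 163.2 CPM in anti-CTLA-4 Foxp3 cells, against 506 in control ones, and Irf7 had 65.8 against 155.0. Cells with a Cd8 UMI and none of Cd4 or Foxp3 had 25.3 per 10000 in anti-CTLA-4 tumours, against 17.1 in control tumours. Among these CD8 cells, 5 of 29 members were higher (3.95% of genes) and 0 lower (8.45% of genes). Isg15 had 134 CPM against 58.9, Bst2 had 214 against 110, and Rtp4, a negative regulator of interferon signalling, had 49.4 against 15.7. Cells with a Cd4 UMI and none of Cd8 or Foxp3 had 35.8 per 10000 against 42.9, with 2 of 28 members higher (3.94% of genes) and 1 lower (3.12% of genes). Without Ifi27l2a, the CD4 cells had 15.05 per 10000 against 14.78, so that the direction turned. Cells with none of these UMIs had 36.3 against 26.1, with 4 of 27 members higher (5.16% of genes) and 1 lower (7.35% of genes). Isg15 was thus lower with anti-CTLA-4 in Foxp3 cells and higher in CD8 cells; the difference between the subsets was not tested.

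NK-like cells had fewer member UMIs in anti-CTLA-4 tumours. Their sum was 13.0 per 10000 (11.9 to 14.1) in 109 anti-CTLA-4 cells, against 18.3 (17.4 to 19.3) in 233 control cells. Of 26 members past the count minimum, 11 were lower, where 8.4% of 6265 genes were, and 1 was higher, where 13% were. The median log2 ratio was -0.78, against 0.07 for all genes. Bst2 had 101.2 CPM against 264.3 (ratio 0.383, 0.267 to 0.536). Isg15 had 41.9 CPM against 117.6, Ifi44 had 2 UMIs against 35, and Ifit3 had 1 UMI against 20. Irf7 was not called, with 244.3 CPM against 248.0. The member that was higher was Ifi27l2a, with 182.6 against 92.0. The NK-like cells themselves differed, with a summed level of the 8 NK markers of 44.8 per 10000 in anti-CTLA-4 cells and 115.4 in control cells, and T markers at 12.2 against 7.61. Of 7 cell cycle genes, 6 were lower, and of 9 dissociation stress genes, 4 were higher and 1 lower, with Hspa1a at 1276 CPM against 605. Their part in the result was not tested. With interferon genes used in clustering, 5 members were lower, and with doublets kept 6 were.

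In B-like cells the difference rested on Ifi27l2a. The sum was 16.4 per 10000 (15.8 to 16.9) in 620 anti-CTLA-4 cells, against 8.07 (6.69 to 9.65) in 72 control cells. Ifi27l2a had 2144 UMIs against 27, or 945 CPM against 181.6, a ratio of 5.20 (3.57 to 7.91). Without it the sums were near each other, at 6.90 and 6.26 per 10000. Of 20 members past the count minimum, Ifi27l2a was the 1 that was higher, where 2.95% of 7655 genes were, and Isg15 the 1 that was lower, where 3.88% were. Isg15 had 21.6 CPM against 80.7. The gauge of free RNA, whose genes were chosen to be low in anti-CTLA-4 classes, stood at 0.318% in anti-CTLA-4 B-like cells, against 11.2% in control ones. The log2 ratio of Isg15 was -1.75 with that share subtracted, against -1.95 without. Oas1a, Oasl1, Rtp4 and Herc6 had 27 to 40 UMIs in anti-CTLA-4 B-like cells and 0 in control ones, which at the depth of the control cells was no call. Weighing each B-like cell the same, and calling by the fold alone, gave 11 higher and 2 lower. The share of all genes under that rule was not computed, so these counts have no background.

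Keratinocyte-like cells, which carry skin keratins, had few member UMIs and fewer in anti-CTLA-4 tumours. Of 16 members past the count minimum, 12 were lower, where 13.7% of 7596 genes were, and 0 were higher, where 13.8% were. Their median log2 ratio was -1.68, against 0.00 for all genes. Stat2 had 3 UMIs against 26, Igtp had 1 against 29, and Xaf1, a pro-apoptotic partner of XIAP, had 1 against 23. Bst2 had 25.4 CPM against 78.7. Ifi27l2a was not called, with 112.0 against 78.7. Of 12 interferon gamma response genes, 11 were lower in these cells. The keratinocyte markers summed to 148 per 10000 in anti-CTLA-4 cells, against 350 in control cells, and 7 of 8 cell cycle genes were lower; their part was not tested.

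Fibroblast-like cells had 4 members higher and 4 lower of 26, where 15.5% of 7831 genes were higher and 10.2% lower. Their sum was 18.04 per 10000 (17.1 to 19.0) in 125 anti-CTLA-4 cells, against 23.4 (22.6 to 24.3) in 146 control cells. Slfn5, of the Schlafen family, had 92.6 CPM against 37.6, and Ifi204, a DNA sensor of the PYHIN family, had 96.4 against 51.2. Ifit1 and Irf9 were the other higher members. Irf7 had 55.8 against 128.7, Bst2 had 298.2 against 502.1 and Lgals3bp, a secreted glycoprotein, had 137.0 against 306.2. The count of lower members was 12 with each cell weighing the same (by the fold alone) and 8 with scaling by the median of all genes. The share of all genes was computed for neither setting. Pericyte or smooth muscle markers summed to 20.1 per 10000 in anti-CTLA-4 fibroblast-like cells, against 9.75 in control ones, and Schwann or melanocyte markers to 9.25 against 2.02. Of 9 dissociation stress genes, 4 were higher, with Hspa1a at 1879 CPM against 734. The part of these markers in the result was not tested.

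Across the 7 classes, Isg15 and Bst2 were called lower most often, in 5 classes each. Both passed the count minimum in all 7 classes, while some members passed it in fewer, such as Dhx58 in 2. The share of all genes called lower in that many classes was not computed, so these counts have no background. Other members were also called lower only, among them Irf7, Stat2, Xaf1 and Ifi44 in 3 classes each. Outside this comparison, both Isg15 and Bst2 were higher with anti-CTLA-4 in the CD8 T-like cells above and in the Ptprc-negative group below. Isg15 was lower in T-like, NK-like, B-like, monocyte/macrophage-like and keratinocyte-like cells and higher in none of the 7, although its log2 ratio turned to 0.84 in keratinocyte-like cells with each cell weighing the same. Bst2 was also lower in 5 classes and higher in 0. Ifi27l2a was higher in 2 classes, B-like and NK-like cells, and lower in 0. Trim30a, which restrains Toll-like receptor signalling, was called in no class.

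In the Ptprc-negative group the members were higher in anti-CTLA-4 tumours, on few anti-CTLA-4 cells. Its comparison was chosen after the data were seen and used cells with at least 5000 UMIs, of which there were 20 in the anti-CTLA-4 library and 2426 in the control library. Of 35 members past the count minimum, 27 were higher in anti-CTLA-4 cells, where 7% of 12308 genes were, and 0 were lower, where 18.3% were. The median log2 ratio was 1.73, against -0.15 for all genes. Isg15 had 589 CPM against 162 (ratio 3.64, 3.27 to 4.03), Bst2 had 2542 against 665, and Irf7 had 327 against 48.1. The widest gaps were in the interferon gamma-regulated GTPases, with Igtp at 385 against 20.5 and Ifi47 at 333 against 29.4. Zbp1 had 330 against 40.7, Usp18 had 102 against 13.3 and Rsad2 had 55.5 against 9.28. Isg20, an exonuclease, was not called, with 64.8 against 54.5, nor were Lgals3bp (123 against 102) and Ifi27l2a (91.0 against 64.2).

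Other lists differed in the same Ptprc-negative cells. Of 50 other type I response genes past the count minimum, 29 were higher and 2 lower. Of 25 interferon gamma response genes, 23 were higher and 0 lower, with Gbp2 at 1068 CPM against 49.6. All 8 cell cycle genes were lower. The group was made up differently in the libraries: 2 of its 7 clusters, with 686 control cells, held 0 anti-CTLA-4 cells, and 16 of the 20 anti-CTLA-4 cells lay in clusters 1 and 6. Within those clusters the median log2 ratio of the members was 1.60 and 2.22. Over all 37 anti-CTLA-4 cells, the 9 tumour-like markers summed to 13.2 per 10000, against 60.2 in control cells, and the 5 red cell markers to 68.7, against 0.409. Crabp1 had a UMI in 19 of the 20 anti-CTLA-4 cells. The part of these differences in the result was not tested. Per cell, the 20 anti-CTLA-4 cells spanned 16.1 to 157 member UMIs per 10000 with a median of 58.5, against a median of 9.53 in the 2426 control cells. The control cells reached 35.3 at their 90th percentile and 405 at most, so the anti-CTLA-4 range lay within the control range. None of the barcodes shared by the libraries was among the anti-CTLA-4 cells of the group.

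**Figure D4:**
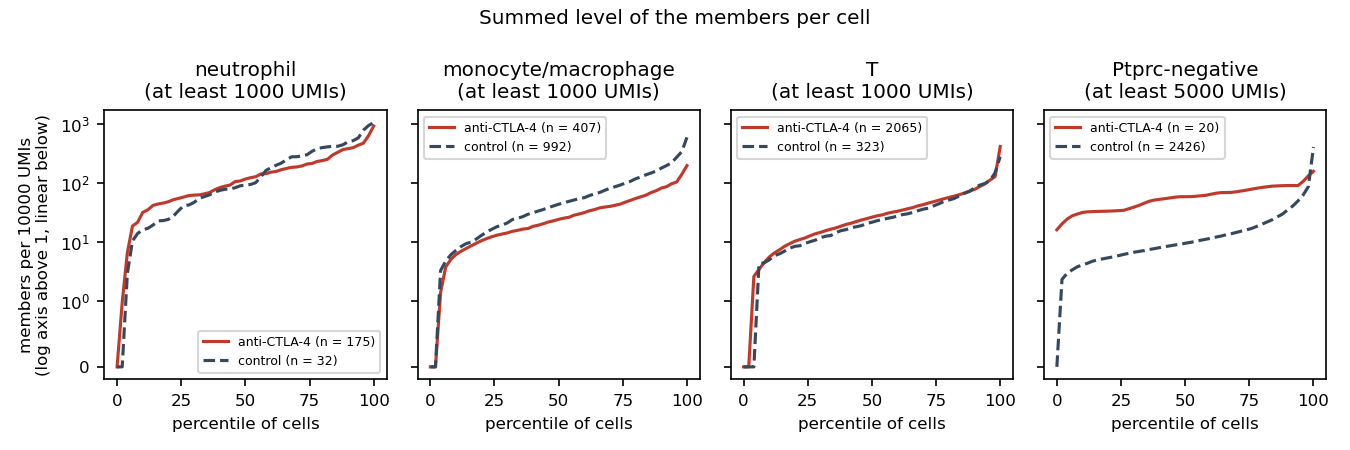
Member UMIs per 10000 in single cells of a class against the percentile of the cell, anti-CTLA-4 and control. The curve of monocyte/macrophage-like cells lies lower in anti-CTLA-4 than in control, and the Ptprc-negative control cells have a long upper end, from a median of 9.53 to a highest value of 405.

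Within the control Ptprc-negative cells the members were unevenly spread and varied together from cell to cell. The 10% of cells with the highest sums held 42.5% of the summed level. Over the 28 members found in at least 10% of cells, the median correlation of 378 pairs was 0.31 across 2426 cells of 1 library, and the highest was 0.69, for Isg15 with Xaf1. The correlation of the members' sum with the list of other type I response genes was 0.67 and with the interferon gamma list 0.66. With the cell cycle list it was 0.06 and with log depth -0.08. Members differed in how far they were held by the cells that were highest for the other members. The 10% of cells highest by the other members held 93.8% of the level of Ifit3b, 87.4% of Ifit1, 86.2% of Cmpk2, 82.3% of Rsad2 and 68.8% of Isg15. The same 10% of cells held 27.0% of Bst2, which had a UMI in 98.2% of cells, and 21.9% of Lgals3bp. Bst2 and Lgals3bp were thus present in most cells, and Ifit1, Ifit3, Ifit3b, Cmpk2 and Rsad2 were concentrated in few. Ifit2 was unlike the other Ifit genes, with 34.9% of its level in those cells and a UMI in 20.1% of all cells.

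**Figure D5:**
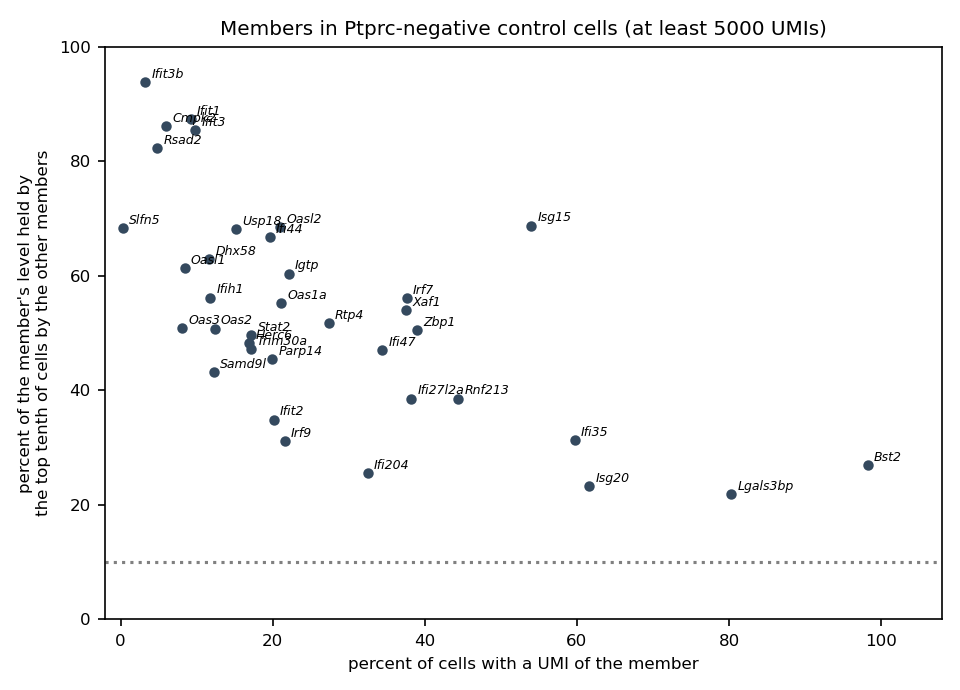
For each member in the control Ptprc-negative cells, the share of its level held by the 10% of cells that were highest for the other members (percent) against the share of cells with a UMI (percent). The dotted line marks the 10% that an even spread would give; Ifit3b, Ifit1, Cmpk2 and Ifit3 lie above 85%, and Bst2 and Lgals3bp lie below 28%.

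The spread between cells was compared after thinning each cell to 1000 UMIs, which left out shallower cells. In monocyte/macrophage-like cells the Fano factor of the member sum (variance over mean) was 4.25 in 407 anti-CTLA-4 cells, against 10.7 in 992 control cells, and 17.2% against 12.2% of cells had no member UMI. In T-like cells it was 3.89 against 5.06, and in NK-like cells 1.43 against 2.88. Another random draw of the thinned UMIs gave 3.79 against 10.2 in monocyte/macrophage-like, 3.91 against 4.80 in T-like and 1.92 against 2.96 in NK-like cells. Without the 3 most abundant members the direction turned in T-like cells, with a Fano factor of 2.58 against 2.21. Neutrophil-like anti-CTLA-4 cells had a Fano factor of 15.02 with 4.57% of 175 cells at 0; too few control cells reached 1000 UMIs. Keratinocyte-like cells had no member UMI in 79.8% of anti-CTLA-4 cells, against 66.0% of control cells. A Fano factor falls with the mean, and the means of the thinned monocyte/macrophage-like cells were 3.53 UMIs in anti-CTLA-4 and 7.40 in control.

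Genes outside the lists of members tracked the members' sum from cell to cell. In monocyte/macrophage-like cells the closest genes that are no members were Ly6e (r = 0.46), Plac8 (0.39) and Ifitm3 (0.37) in anti-CTLA-4, against Ifitm3 (0.58), Ly6e (0.55) and Ms4a4c (0.54) in control. In anti-CTLA-4 neutrophil-like cells they were Ifitm3 (0.47), Slfn4 (0.43), Irgm1 (0.41) and Gbp2 (0.40). In control Ptprc-negative cells they were Phf11d (0.45), Gbp2 (0.41) and Ly6a (0.41). These correlations describe cells of 1 library each.

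Transcripts of the interferons themselves were rare. Ifnb1, which encodes interferon beta, had 0 UMIs in the 3950 anti-CTLA-4 cells, which allows a share of cells with an Ifnb1 UMI of up to 0.0759%, or up to 8.11% of the 37 Ptprc-negative cells. In the control library it had 36 UMIs in 9 of 2924 Ptprc-negative cells, 9 UMIs in 1 endothelial-like cell and 1 UMI in 1 keratinocyte-like cell. The members' level in those 9 Ptprc-negative cells ran from 3.46 to 254.7 per 10000. Ifng, which encodes interferon gamma, had 414 UMIs in 113 of 2126 anti-CTLA-4 T-like cells, against 12 UMIs in 5 of 374 control T-like cells. In NK-like cells Ifng had 47 UMIs in 16 of 109 anti-CTLA-4 cells, against 148 UMIs in 29 of 233 control cells. Outside T-like and NK-like cells, an Ifng UMI was found in 2 of 490 anti-CTLA-4 monocyte/macrophage-like cells, against 1 of 1147 control ones, and in 1 of 37 anti-CTLA-4 Ptprc-negative cells, against 2 of 2924 control ones. Of the 620 anti-CTLA-4 B-like cells, 1 had an Ifng UMI. Median depth in T-like cells was 3304 UMIs in anti-CTLA-4 and 1950.5 in control. A transcript missed in a cell at this depth does not show that the cell lacked it.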

How the data were processed

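Droplet single-cell RNA libraries of 1 anti-CTLA-4 and 1 control tumour sample were analysed; the receptor-sequence files of the study were not used. The deposited matrices hold raw UMI counts per gene and cell, made by the authors with Cell Ranger 5.0.0 on mm10 (GRCm38), per the submitters' processing notes; which annotation release they used is not given in the sources used here. As the mice were BALB/c, reads that differ from the reference may have been lost. Counts of genes sharing a symbol were summed.

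Barcodes under 200 genes or over 15% mitochondrial UMIs were left out. Scrublet marked 1 anti-CTLA-4 cell and 0 control cells, under 0.5%, so it had not worked, and the cells with the highest scores were removed at the expected rate (133 anti-CTLA-4, 240 control). Both libraries were clustered jointly (scanpy 1.11.5, leidenalg 0.10.2; 2000 variable genes, 30 components, 15 neighbours, resolution 1.0). A cluster was named from at least 3 markers found in at least 20% of its cells with a mean log2 fold of at least 1; these limits were set after the data were seen. Ratios with exact binomial intervals (scipy 1.17.1) were computed on summed counts over all genes with at least 20 UMIs; medians of log2 ratios used 0.5 UMI added. The ratio step was tested on simulated data.

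Named in each class were the 5 members with the most UMIs and the 5 highest and 5 lowest ratios by the interval bound nearest to 1, among members with at least 50 UMIs; from each other list, the 2 farthest from a ratio of 1 and the 2 with the most UMIs; and up to 5 genes that correlate with the members at an r of at least 0.3. Members named beyond this, to cover each role, and the Ptprc-negative comparison were chosen after their values were seen. Alternatives changed the filters, doublets, resolution, clustering genes, free RNA, scaling, count minimum, fold and weighting of cells. The members and lists were chosen with earlier results of these data known. The number of cells and the depth limit the precision; UMIs of 1 library share mice and handling, so the intervals cover counting error only.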

Additional observations from a re-analysis of the deposited data

Results flagged for a closer look

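The following 12 members differed in opposite directions in 2 cell classes, each past 1.5-fold with an interval that did not hold 1. The share of all genes called in opposite directions was not computed, so the count of 12 has no background. None of these differences between classes was tested, and each rests on 1 library per condition. Values are log2 ratios of anti-CTLA-4 over control. Ifit1 was 1.62 in T-like and -2.18 in monocyte/macrophage-like cells. Ifit3 was 1.53 in T-like and -2.69 in NK-like cells, the last from 1 UMI against 20. Ifih1 was 1.51 in T-like and -0.90 in monocyte/macrophage-like cells. Oas1a was 0.99 in T-like and -1.86 in keratinocyte-like cells. In neutrophil-like cells Zbp1 was 1.49, Herc6 1.93 and Samd9l 2.26, against -1.20, -0.91 and -0.66 in monocyte/macrophage-like cells. Ifi47 was 0.95 in neutrophil-like and -0.81 in NK-like cells. Irf9, Rnf213 and Igtp were 1.72, 1.38 and 1.38 in neutrophil-like cells, against -1.20, -2.71 and -3.77 in keratinocyte-like cells. Ifi204 was 0.91 in fibroblast-like and -0.75 in monocyte/macrophage-like cells.

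The members' median log2 ratios also differed in direction between groups, again untested. It was -0.93 in monocyte/macrophage-like cells, 1.07 in T-like cluster 0, and 1.68 over all 37 anti-CTLA-4 Ptprc-negative cells against all 2924 control ones. In T-like cluster 0 the gauge of free RNA stood at 0.597% in anti-CTLA-4 cells, against 14.3% in control cells. The genes of the gauge were chosen to be low in anti-CTLA-4 classes, and the part of free RNA was not tested.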

How the results depend on the processing

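No paired analysis was possible because each condition has 1 library, and no library could be left out. Of 370 values recomputed for 28 results under 20 settings, 323 counted as unchanged. A count of members was unchanged if equal or within 1.5 times. A ratio of sums was unchanged if its interval held or left out 1 as before, or if it crossed 1 where the main interval held 1. A median was unchanged if it moved by no more than the median distance from the centre to the end of a member's interval. A median could thus change sign and still count as unchanged. The median log2 ratio stayed below 0 in monocyte/macrophage-like (-1.27 to -0.20), keratinocyte-like (-1.77 to -0.81) and NK-like cells (-0.95 to -0.41) under every setting run; it changed sign in T-like, neutrophil-like and fibroblast-like cells. Without cluster 2, a setting added after the data were seen, the 4 monocyte/macrophage-like results held.

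The cause of the changes below was not tested. Except for single clusters, the share of all genes was not computed under these settings, so the counts have no background. In T-like cells, members lower numbered 1 with scaling by the median of all genes, with a class total lacking mitochondrial, ribosomal and receptor genes, and at 500 genes per cell, and 0 at a fold of 2. Members higher numbered 10 with each cell weighing the same. With interferon genes left in clustering, 2 were higher and 4 lower, the ratio of sums was 0.924, Ifit1 was -0.13 and Ifit3 -0.50; free RNA subtracted gave a ratio of 0.935. In cluster 0 the median was 1.07 and 0 were lower, with Isg15 at 0.67 and Stat2 at 0.92. In cluster 5, 1 was higher and 1 lower, with Ifit1 at -0.50, Ifih1 at -0.26 and Samd9l at -0.56. In cluster 10, 2 were higher and 4 lower.

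In monocyte/macrophage-like cells 17 were lower at a fold of 2, and 1 was higher in cluster 2 and at resolution 2.0. Cluster 2 had Rsad2 at 0.29. Cluster 4 had a median of -0.20, 10 lower, and Ifi44 at 0.078, Stat2 at 0.70, Oas2 at 0.96, Oasl1 at 0.31, Oasl2 at 0.25, Samd9l at 0.24 and Ifi204 at 0.38; cluster 8 had a median of -1.27.

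Weighing each cell the same, where a call rests on the fold alone, gave 2 higher in NK-like cells, 11 higher and 2 lower in B-like, 8 lower and a ratio of sums of 0.896 in neutrophil-like, 2 higher with Isg15 at 0.84 in keratinocyte-like, and 12 lower with Irf9 at -0.38 in fibroblast-like cells. At 100 UMIs, 3 were lower in NK-like, 0 in B-like, 2 in neutrophil-like and 2 in keratinocyte-like cells, and 2 were higher in fibroblast-like cells, since fewer members were assessed. At a fold of 2, 0 were higher in NK-like and 2 lower in neutrophil-like cells. In neutrophil-like cells, free RNA subtracted gave 7 lower and a ratio of 0.827, scaling by the median 0.941, and the smaller class total 0.905. A mitochondrial limit of 10% gave 7 lower in NK-like, 1 higher in keratinocyte-like and 7 lower in fibroblast-like cells. Doublets kept gave 6 lower in NK-like and 7 in fibroblast-like cells, and interferon genes in clustering gave 5 lower in NK-like cells. Fibroblast-like cells had 8 lower with scaling by the median and 7 at 500 genes. No value was had for neutrophil-like cells at 500 genes or fibroblast-like cells at resolution 2.0, where under 50 cells of a library were left. For single members, 2150 values held, 94 fell below the threshold, 83 rose past it, 13 moved and 17 turned.

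Depth limits the rare members most, above all the control B-like, neutrophil-like and T-like cells, and the 37 anti-CTLA-4 Ptprc-negative cells come from 1 library.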
